A study of Capra hircus with 10 samples.

Results

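Among the 1327 circular RNAs (circRNAs) listed for goat intramuscular preadipocytes and adipocytes, 67 came from host genes named for the centrosome, the kinetochore or mitosis. They were chosen by host gene name alone: a symbol beginning with CEP, CENP, KIF, CDK, CCN, NEK, TOP2, BUB, SMC, MCM, NCAP, POLA, POLE, RFC, ORC, FANC, BRCA, CKAP, TTK, PRC1, ASPM or ANLN, or equal to HELLS, CIT, VRK1, DIAPH3, ECT2 or CEP112. The 67 circRNAs belonged to 40 of the 946 host genes, and all 67 were derived from exons. The rule reads names only, and it was drawn up with earlier results of these data known. The study cultured wild type intramuscular preadipocytes from the longissimus dorsi fat of 3 male Jianzhou goats that were 7 days old, and compared 5 libraries of preadipocytes at day 0 (IMPA1 to IMPA5) with 5 libraries of adipocytes at day 3 (IMA1 to IMA5). The IMPA libraries are labelled day 0 and the IMA libraries day 3 of adipogenic differentiation, which was induced with 50 μmol/L oleic acid. Medium with serum was common to both groups, and the time in culture differed together with the induction, so these cannot be told apart. The labels do not say which goat gave which library, and with 5 libraries a group and 3 goats some libraries may share an animal. The p-values therefore measure the spread between these libraries.

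A circRNA is a closed loop made when the end of a downstream exon is spliced back to the start of an upstream exon, and the read across that back-splice junction is what identifies it. Centrosomes organise microtubules and turn into the basal bodies of cilia, kinetochores attach chromosomes to spindle microtubules, condensin and the other SMC complexes shape chromosomes, and citron kinase and formins act at the contractile ring that separates daughter cells. Preadipocytes divide in growth medium and leave the cell cycle as they turn into adipocytes, and their primary cilium is known to take part in the signals that start this process.

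The name rule caught genes of several roles. Centrosome, centriole and cilium proteins made up the largest group, with 26 circRNAs of 13 genes, followed by transport and cilium kinesins and their partner KIFAP3 with 12 circRNAs of 6 genes. The mitotic kinesins KIF20B and KIF22 together with the mitotic chromatin kinase VRK1 gave 7 circRNAs, condensin and SMC genes gave 7, CDK, NEK11 and cyclin K genes gave 6, and the cytokinesis genes CIT and DIAPH3 gave 5. The kinetochore had a single circRNA, of CENPF, and single circRNAs also came from the chromatin remodeller gene HELLS, the Fanconi anaemia gene FANCC and CDKAL1. CDKAL1 was caught by its first letters and encodes a tRNA-modifying enzyme, not a CDK. No host gene in the table began with TOP2, BUB, MCM, POLA, POLE, RFC, ORC, BRCA, CKAP, TTK, PRC1, ASPM or ANLN, and cyclin K was the lone cyclin. CEP112 stood out with 11 circRNAs, KIFAP3 and VRK1 had 5 each, DIAPH3 and KIF27 had 3 each, 5 genes had 2, and 30 genes had 1. CircRNAs of 1 gene can share exons and linear reads and are not independent of each other.

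The circRNA of CEP112 that carries the clearest difference below, circ_0009231, was measured in the study by quantitative PCR with the primer pair below. The pair is shown because it is the designed sequence that stands for this circle, and no capitals are used since no base is singled out.
circ_0009231 forward primer: gaggaaccgcaacctgtacg
circ_0009231 reverse primer: gctgccgttctgacctatgg
Both primers were 20 nt long with a GC content of 60%. The circle itself was listed at chromosome 19, 61732412 to 61736148 on the minus strand, as the files number it, with 2 CEP112 exons and a spliced length of 305 nt. The name of the genome build was not given in the sources used here.

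Each library held between 9622 and 15553 junction reads, with 11421 to 15553 in IMPA and 9622 to 12499 in IMA, so 1 read was worth between 64.3 and 87.6 TPM for IMPA and between 80 and 104 TPM for IMA. The study reported a lower mapping ratio and fewer uniquely mapped reads for every IMA library than for every IMPA library. Mapping and stage therefore cannot be told apart, which bears on counts of 0 and on all levels below. TPM is the name the deposited table uses for junction reads scaled to a fixed total of junction reads in each library. Normalised TPM below has in addition the TMM scaling factors of edgeR. No count of 1 was listed, and 64.5% of the members' counts above 0 were under 10. The upper limit behind a 0 in 1 library is 3 reads. Before TMM that limit lay between 193 and 263 TPM for IMPA and between 240 and 312 TPM for IMA, and it covers counting error only. Of 22 adipocyte markers looked up, only INSR and PLIN2 hosted circRNAs; ADIPOQ, PPARG and FABP4 hosted none and could not be checked. The non-junction reads of PLIN2, which coats lipid droplets, rose in IMA by 1.93 on the log2 scale (SE 0.12, edgeR adjusted p = 1.51e-14), while those of INSR, the insulin receptor, did not pass (log2 fold change 0.05, adjusted p = 0.815). Of the fibroblast and matrix list 7 genes hosted 17 circRNAs, which summed to between 17947 and 23894 normalised TPM in the IMPA libraries and between 15427 and 17574 in the IMA libraries, without overlap. The ratio of the means was 0.809. That sum leans on circ_0009677 of CEMIP, a hyaluronan-degrading protein, with 111 to 191 reads in the IMPA libraries and 74 to 109 in IMA. In non-junction reads, 3 of 8 loci of the list were higher and 2 lower at an edgeR adjusted p under 0.01. The lower loci were of CEMIP, with log2 fold changes of -1.22 (circ_0009677) and -1.31 (circ_0009657). The higher were of COL5A2 (0.63) and FBN1 (0.34 and 0.29). In junction reads, 1 of 16 circRNAs rose (COL5A1 circ_0005870, 2.03) and 1 fell (circ_0009677, -0.58) at that level. Of 26 striated muscle markers 6 hosted 14 circRNAs, 4 of which rose (circRNAs of MYBPC1, MYPN and LMO7, the last with 2) and none of which fell at an adjusted p under 0.01. Summed, they reached between 4855 and 6504 normalised TPM in the IMPA libraries and between 11142 and 14566 in the IMA libraries. That sum leans on the circles of LMO7. Of these, circ_0006499 had 6 to 19 reads in the IMPA libraries and 24 to 50 in IMA, circ_0006511 5 to 13 and 18 to 28, and circ_0006502 15 to 19 and 17 to 24. MYBPC1 was at 0 in every IMPA library, and TTN, NEB and DMD hosted none. The part of muscle or fibroblast cells in the results below was not tested. In bulk samples, fewer cells of a type and less RNA per cell cannot be told apart.

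As a group, these circRNAs took a smaller share of the junction reads in adipocytes. The members' share was 5.35%, 5.86%, 5.66%, 5.19% and 5.84% in IMPA1 to IMPA5 and 4.82%, 4.49%, 4.99%, 4.80% and 5.02% in IMA1 to IMA5. Every IMA library was thus below every IMPA library, with means of 5.58% ± 0.298 and 4.83% ± 0.212 (SD, n = 5 each). The closest libraries were IMPA4, with a 95% Wilson interval of 4.82% to 5.60%, and IMA5, with 4.62% to 5.46%, and these intervals overlap. A count of 0 made up 5.37% of the members' values in IMPA and 17% in IMA, against 6.80% and 13.5% over all circRNAs. The summed normalised TPM of the members in IMA was 0.823 of that in IMPA, against 0.952 for all circRNAs.

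**Figure D1:**
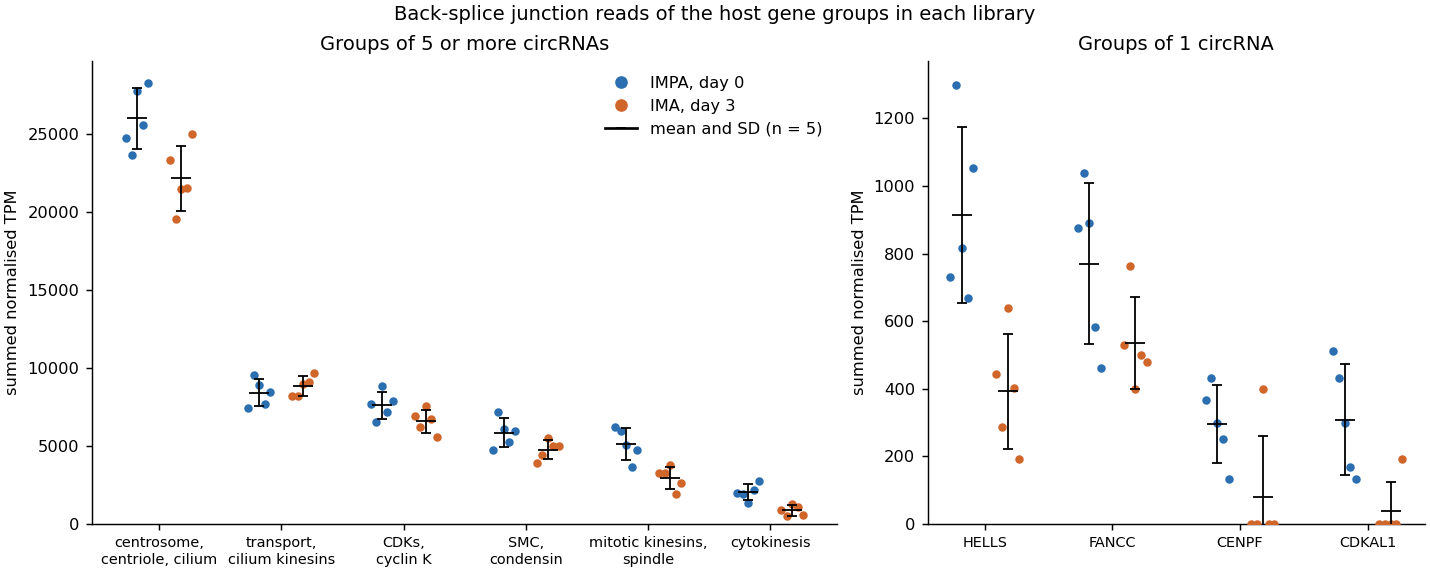
Summed normalised TPM (vertical axes, from 0) of the circRNAs of each role in each of the 5 IMPA libraries (blue) and 5 IMA libraries (orange); black marks give the mean and SD. The centrosome group had by far the most reads, the transport kinesin group was level between the stages at 8397 and 8833, and the groups of mitotic kinesins with VRK1 and of cytokinesis had IMA means of 2952 and 863 against IMPA means of 5129 and 2029.

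Tested one by one, a single member passed. In edgeR's quasi-likelihood test over the 1294 circRNAs seen in 5 libraries or more, 66 members were tested, 1 fell and none rose at a Benjamini-Hochberg adjusted p under 0.01, while 0.927% of all circRNAs were called, 0.464% in each direction. The member that fell was circ_0009231 of CEP112, and no other was added at an adjusted p under 0.05, which 1.39% of all circRNAs passed. At an unadjusted p under 0.05, 15 members were lower and 1 was higher, or 16 of 66, where 8.35% of all circRNAs tested were lower and 4.79% higher. A log2 fold change below 0 was found for 44 of 66 members and for 55.1% of all circRNAs. The median log2 fold change was -0.28 for the members and -0.06 for all circRNAs tested. With the uniquely mapped reads of each library as library sizes the medians became -0.09 and 0.13. Groups that did not overlap were found for 4 members, all lower in IMA (circ_0009231, KIF20B circ_0011092, HELLS circ_0011048 and VRK1 circ_0009848), where 2.16% of all circRNAs were separated in that direction and 2.24% in the other. CEP162 circ_0004930, with 2 reads in IMPA and 10 in IMA over all libraries, had too few libraries with reads to be tested.

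**Figure D2:**
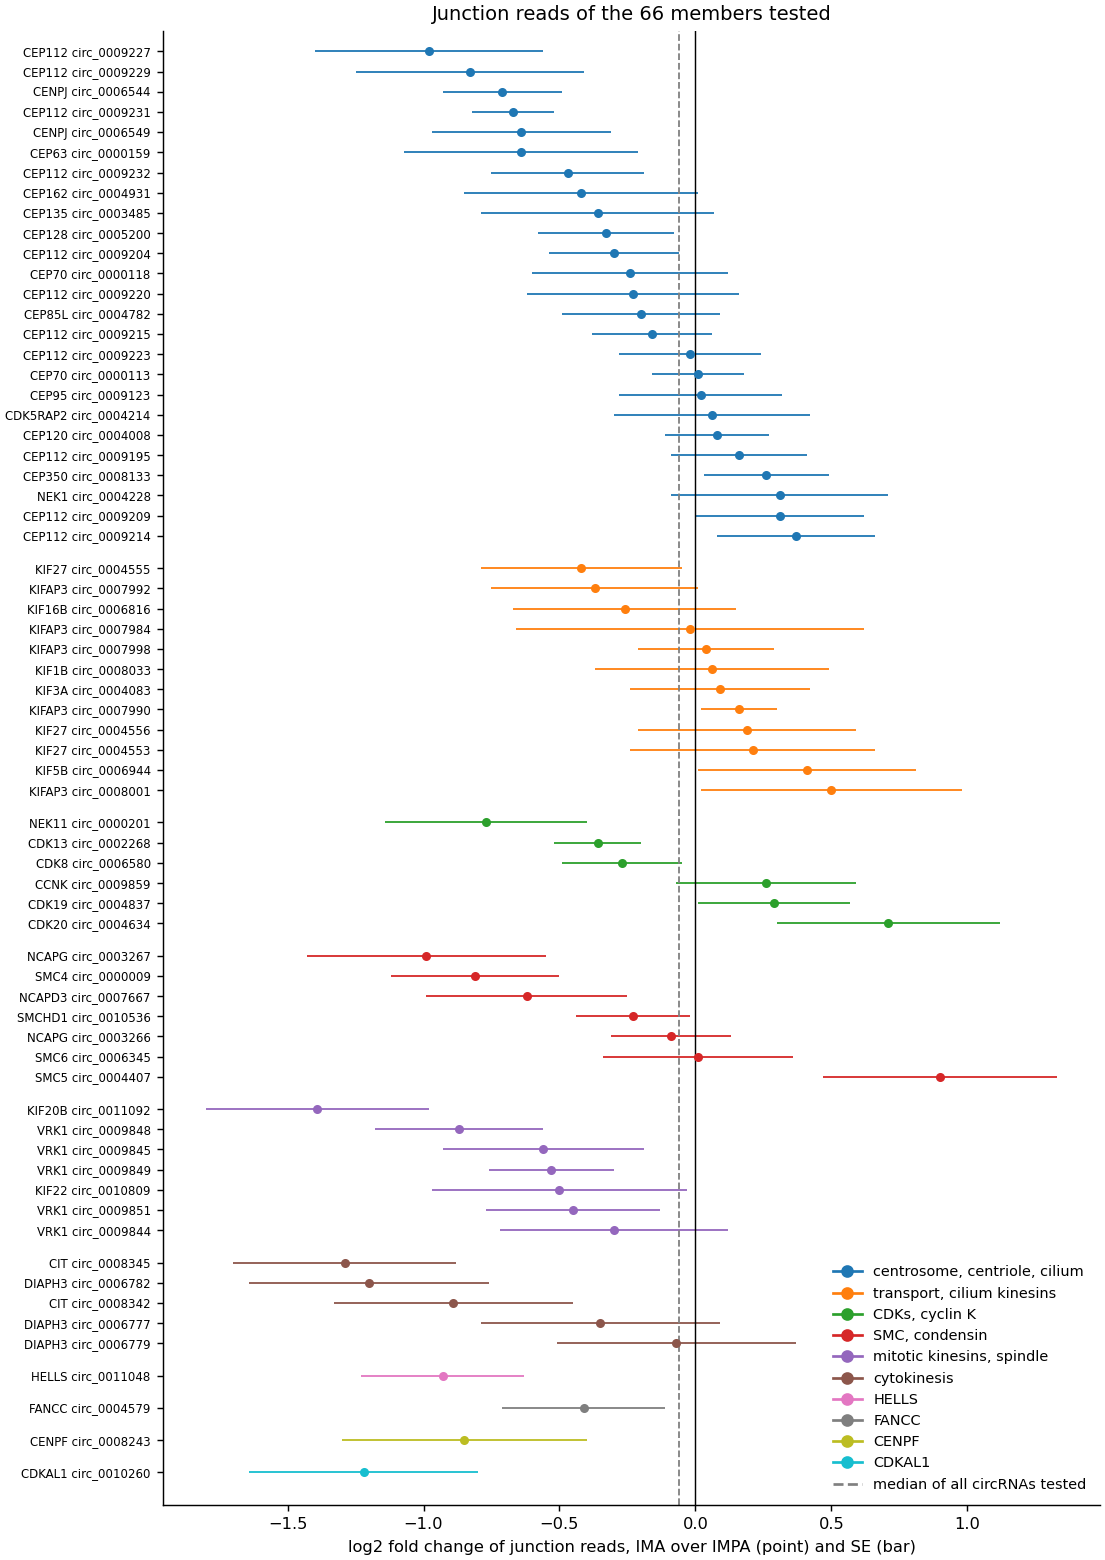
Log2 fold change of junction reads, IMA over IMPA, of the 66 members tested (points) with its standard error (bars), ordered within each role; the solid line marks 0 and the dashed line the median of all circRNAs tested, -0.06. The 7 circRNAs of KIF20B, KIF22 and VRK1 and the 5 of the cytokinesis group lie below 0, those of the transport kinesins lie on both sides, and most bars are wide because most members had few reads.

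CEP112, a centrosomal coiled-coil protein, was the host of 11 circRNAs, which lay between 61592538 and 61737601 on chromosome 19. The junction reads of circ_0009231 numbered 59, 42, 72, 47 and 67 in IMPA1 to IMPA5 and 30, 30, 32, 25 and 29 in IMA1 to IMA5. All IMA libraries were below all IMPA libraries, and the IMA libraries lay close together, with a normalised TPM of 4324 ± 646 for IMPA against 2670 ± 148 for IMA (SD, n = 5 in each group). It fell by 0.67 on the log2 scale (SE 0.15, edgeR adjusted p = 0.00856). The call was lost in 13 of 18 alternatives, with adjusted p between 0.00363 and 0.155, and stood without IMPA2 or IMPA4 alone among the libraries left out, where the range was 0.00622 to 0.0488. The direction was the same in all of them, with log2 fold changes from -0.72 to -0.43. The value of -0.43 and the adjusted p of 0.155 came with uniquely mapped reads as library sizes.

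The other CEP112 circRNAs did not pass the test. Their reads together made 8227 ± 1043 normalised TPM in IMPA and 7352 ± 1536 in IMA, with overlapping libraries. As a share of all CEP112 junction reads, circ_0009231 took 33.7%, 34.7%, 40.9%, 31.8% and 31.3% in IMPA1 to IMPA5 and 23.1%, 30.3%, 27.8%, 30.9% and 23.4% in IMA1 to IMA5. The groups did not overlap, with IMA4 at 30.9% next to IMPA5 at 31.3%. CircRNAs that share a back-splice site with it also had log2 fold changes below 0: circ_0009227 and circ_0009229 share its back-splice site at 61736148 and circ_0009232 shares the one at 61732412. Their log2 fold changes were -0.98 (SE 0.42), -0.83 (SE 0.42) and -0.47 (SE 0.28), with edgeR adjusted p of 0.259, 0.387 and 0.487. circ_0009227 had 11, 6, 3, 3 and 9 reads in IMPA1 to IMPA5 and 2, 0, 4, 3 and 0 in IMA1 to IMA5, which is close to the floor of the data. The circRNAs from the other parts of the gene had log2 fold changes between -0.30 (circ_0009204) and 0.37 (circ_0009214). circ_0009195, the widest circle with a span of 60642 nt, was at 1015 ± 384 normalised TPM in IMPA and 1176 ± 177 in IMA.

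**Figure D3:**
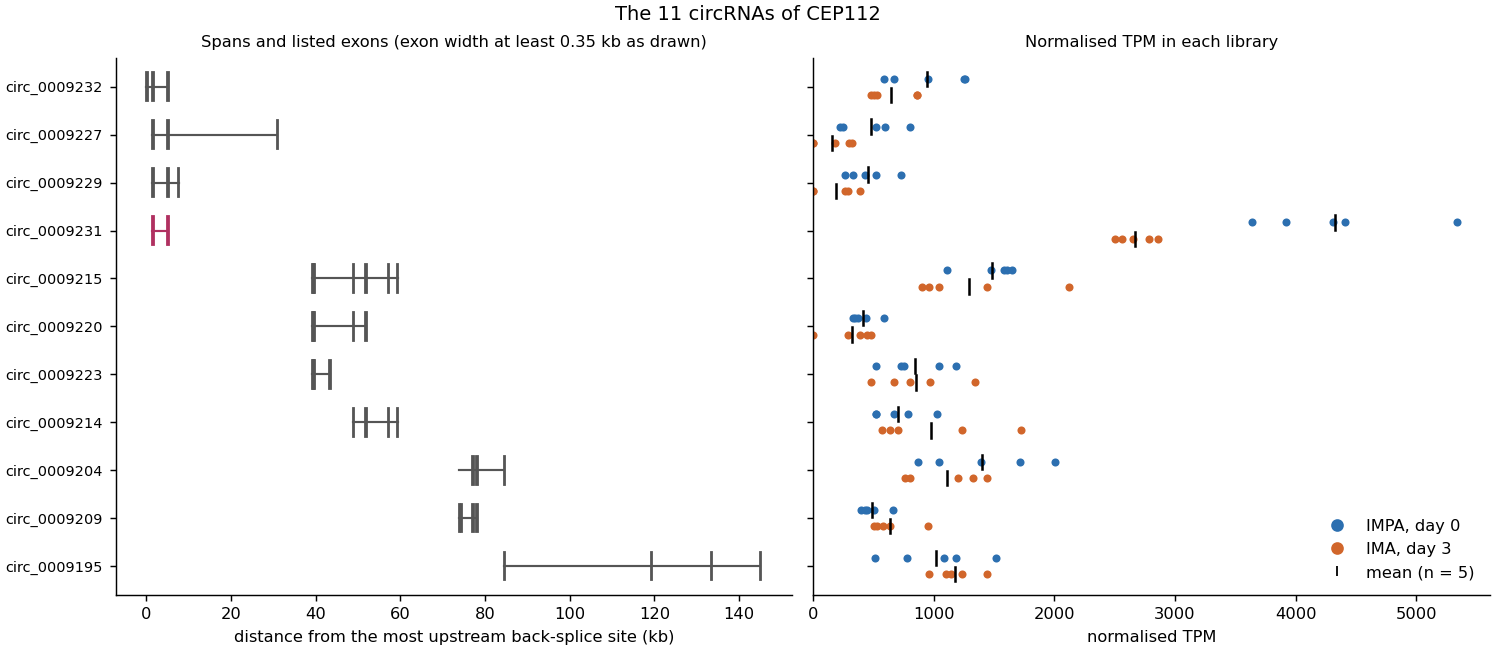
Left, the span (line) and listed exons (bars) of each CEP112 circRNA by distance in kb from the most upstream back-splice site, in the direction of transcription, with circ_0009231 in red. Right, the normalised TPM of the same circRNAs in each IMPA (blue) and IMA (orange) library with the mean (black); circ_0009231 is the one circle whose libraries separate, with IMPA from 3641 to 5341 and IMA from 2503 to 2857.

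The group of KIF20B, KIF22 and VRK1 had a log2 fold change below 0 in each of its 7 circRNAs, beside 55.1% of all circRNAs tested. None of the 7 passed the test. VRK1 gave 5 of the 7 and 439 of the 502 reads. The summed level of the whole group was 5129 ± 1024 normalised TPM in IMPA (3669 to 6211) and 2952 ± 719 in IMA (1903 to 3762). The highest IMA library was just above the lowest IMPA library. KIF20B is a kinesin of the late spindle and of abscission. Its circ_0011092 had 5, 7, 3, 3 and 6 reads in IMPA1 to IMPA5, none in IMA1 to IMA4 and 2 in IMA5. At 223 and 250 normalised TPM, IMPA3 and IMPA4 were not above what a 0 allows in every IMA library, so the separation is one of listed values. The level over all IMPA libraries was 9.97 times that over all IMA libraries, with a counting interval of 2.47 to 87.0. That interval pools the reads of each group and leaves out the spread between libraries. The edgeR adjusted p, which includes that spread, was 0.0821 (log2 fold change -1.39, SE 0.41). VRK1 encodes a chromatin kinase that acts on histone H3 and on nuclear envelope assembly. Its 5 circRNAs, 4 of which share the back-splice site at 60996150 on chromosome 21, summed to 4378 ± 832 normalised TPM in IMPA and 2691 ± 792 in IMA, with overlapping libraries. circ_0009848 had 10, 7, 15, 9 and 12 reads in IMPA and 4, 2, 7, 4 and 3 in IMA, in order of number. Its log2 fold change was -0.87 (SE 0.31, edgeR adjusted p = 0.178), and after normalisation its groups did not overlap. The most abundant VRK1 circle, circ_0009849, was at 1672 ± 334 and 1086 ± 498 normalised TPM with an edgeR adjusted p of 0.275. The log2 fold changes of circ_0009844, circ_0009845 and circ_0009851 were -0.30, -0.56 and -0.45. The chromokinesin KIF22 gave circ_0010809, with 25 reads in IMPA and 12 in IMA over all libraries.

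**Figure D4:**
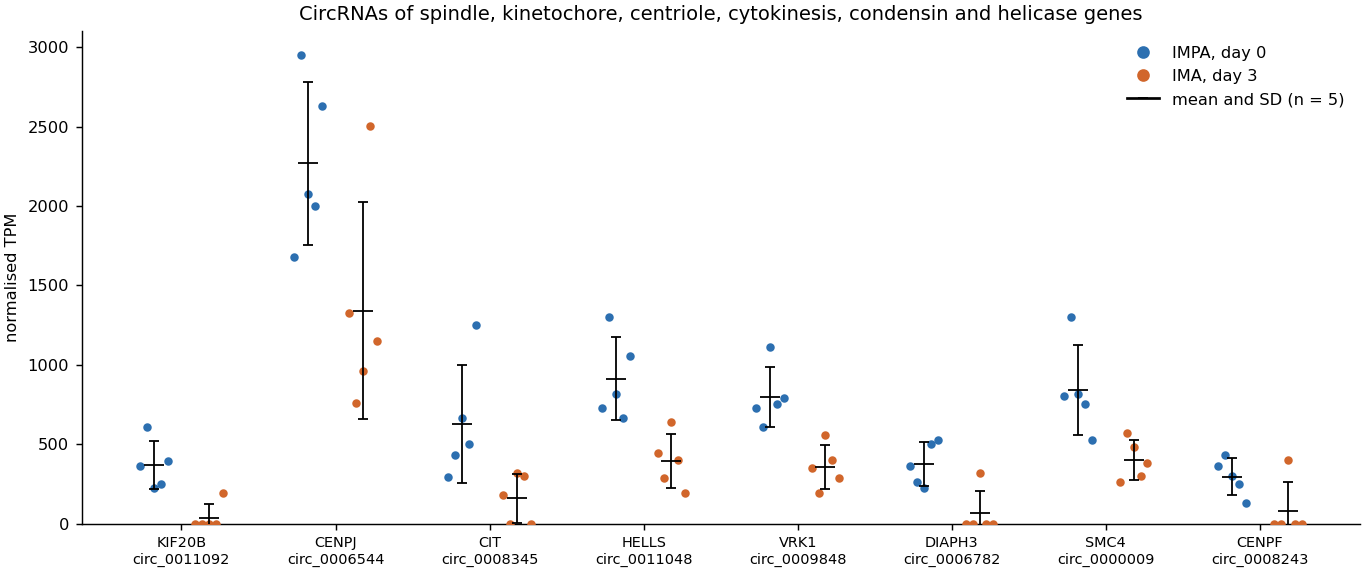
Normalised TPM (vertical axis, from 0) of 8 circRNAs of cell division genes in each IMPA (blue) and IMA (orange) library, with the mean and SD in black. Points on the axis are libraries with no reads. The 8 were picked after their values were seen, and all but CENPF are among the members of smallest unadjusted p in the edgeR junction test. Circles of the same roles that were level or higher, such as those of SMC6 (log2 fold change 0.01) and SMC5 (0.90), are not drawn. The listed values of the groups do not overlap for KIF20B, HELLS and VRK1, though KIF20B in IMPA3 (223) is under the limit a 0 allows in IMA, while in CENPJ, CIT, DIAPH3, SMC4 and CENPF at least 1 IMA library lies within the IMPA range.

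Kinetochore and cytokinesis circles were rare. CENPF, a large protein of the outer kinetochore, gave circ_0008243 with 5, 5, 4, 3 and 2 reads in IMPA1 to IMPA5 and with 5 reads in IMA3 and none in the other IMA libraries. The log2 fold change was -0.85 (SE 0.45, edgeR adjusted p = 0.413). Citron kinase, CIT, is needed for abscission at the midbody. Its circ_0008345 had 4, 5, 9, 6 and 19 reads in IMPA1 to IMPA5 and 2, 0, 4, 3 and 0 in IMA1 to IMA5, for a log2 fold change of -1.29 (SE 0.41, edgeR adjusted p = 0.12). IMPA5 was far above the other IMPA libraries, and the groups overlapped once scaled. DIAPH3, a formin that builds actin filaments at the contractile ring, gave 3 circRNAs with log2 fold changes of -0.07 to -1.20. Its circ_0006782 had 5, 3, 3, 6 and 8 reads in IMPA1 to IMPA5 but 4 reads in IMA3 and none in the other IMA libraries (log2 fold change -1.20, SE 0.44, edgeR adjusted p = 0.182). Together the 5 cytokinesis circRNAs summed to 1335 to 2763 normalised TPM in IMPA and to 476 to 1281 in IMA, without overlap. They rested on 18 to 42 reads a library in IMPA and 5 to 16 in IMA, and 44.0% of their values in IMA were 0.

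Circles of chromosome structure genes went both ways. HELLS, a SNF2 family helicase that helps to keep DNA methylated, gave circ_0011048 with 10, 15, 11, 8 and 16 reads in IMPA1 to IMPA5 and 5, 3, 8, 4 and 2 in IMA1 to IMA5. After normalisation the groups did not overlap, at 913 ± 261 and 392 ± 170 normalised TPM, but the test did not pass (log2 fold change -0.93, SE 0.30, edgeR adjusted p = 0.135). SMC4, the ATPase shared by both condensins, gave circ_0000009 with 11, 15, 11, 9 and 8 reads in IMPA1 to IMPA5 and 3, 6, 6, 3 and 4 in IMA1 to IMA5 (log2 fold change -0.81, SE 0.31, edgeR adjusted p = 0.212). For the condensin subunit NCAPG the abundant circ_0003266 was level, at 1304 ± 260 and 1215 ± 155 normalised TPM, and circ_0003267, which uses the same start, had 3 to 5 reads in every IMPA library and was seen in IMA3 alone among the IMA libraries, with 4 reads. SMC5, of the SMC5/6 repair complex, had the highest log2 fold change of the members tested. Its circ_0004407 had 3, 0, 0, 4 and 5 reads in IMPA1 to IMPA5 and 3, 5, 4, 9 and 5 in IMA1 to IMA5 (log2 fold change 0.90, SE 0.43, edgeR adjusted p = 0.339). Its partner SMC6 was level at 533 ± 160 and 543 ± 163 normalised TPM. SMCHD1, which acts in X inactivation, had the most reads of the group, 2019 ± 681 normalised TPM in IMPA and 1669 ± 443 in IMA. FANCC circ_0004579 was at 770 ± 239 and 534 ± 136 normalised TPM (edgeR adjusted p = 0.556).

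None of the other centrosome circles passed the test. CENPJ is a protein that sets centriole length. Its circ_0006544 had 23, 34, 28, 24 and 40 reads in IMPA1 to IMPA5 and 15, 8, 12, 25 and 12 in IMA1 to IMA5. IMA4 lay inside the IMPA range and the other IMA libraries below it, and the log2 fold change was -0.71 (SE 0.22, edgeR adjusted p = 0.115). The second CENPJ circle, circ_0006549, uses the same upstream site and had a log2 fold change of -0.64 (SE 0.33, edgeR adjusted p = 0.408). By contrast, CEP70 circ_0000113 was at 2563 ± 479 and 2591 ± 281 normalised TPM (log2 fold change 0.01, SE 0.17), and CEP120 circ_0004008, of a centriole elongation gene, was at 2112 ± 390 and 2270 ± 607 (log2 fold change 0.08, SE 0.19). CEP350 circ_0008133 was at 1285 ± 483 and 1589 ± 435, and CEP128 circ_0005200, of a gene of the subdistal appendages, at 1118 ± 367 and 865 ± 220. Over the whole centrosome group 16 of 25 circRNAs tested had a log2 fold change below 0, with a median of -0.23. Over all circRNAs tested 55.1% were below 0, with a median of -0.06. CEP112 alone gave 11 of the 25 and 8 of the 16, and its circles are not independent of each other.

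Among the transport kinesins no circRNA had an unadjusted p under 0.05 in the edgeR test. The group summed to between 7453 and 9537 normalised TPM in the IMPA libraries and between 8190 and 9686 in the IMA libraries. A log2 fold change below 0 was found for 4 of 12, beside 55.1% of all circRNAs tested, and the median was 0.07. The most abundant member of all was circ_0007990 of KIFAP3, the adaptor that joins the kinesin-2 motor of the cilium to its cargo. It had 43, 50, 47, 42 and 65 reads in IMPA1 to IMPA5 and 52, 37, 53, 46 and 43 in IMA1 to IMA5, for a log2 fold change of 0.16 (SE 0.14, edgeR adjusted p = 0.656). The 4 further KIFAP3 circles ranged from -0.37 (circ_0007992) to 0.50 (circ_0008001) on the log2 scale. The kinesin-2 motor KIF3A itself was at 489 ± 197 and 521 ± 194 normalised TPM. KIF27, a kinesin of motile cilia, gave 3 circles whose sum was 1321 ± 562 in IMPA and 1209 ± 767 in IMA.

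The CDK genes were mostly those of transcription, with CDK20 beside them, whose circ_0004634 had 6 reads in IMPA and 14 in IMA over all libraries (log2 fold change 0.71, SE 0.41, edgeR adjusted p = 0.466). CDK13 phosphorylates RNA polymerase II together with cyclin K, and its circ_0002268 was the second most abundant member. It had 58, 42, 64, 35 and 74 reads in IMPA1 to IMPA5 and 43, 32, 41, 24 and 34 in IMA1 to IMA5, or 4083 ± 812 and 3158 ± 504 normalised TPM (log2 fold change -0.36, SE 0.16, edgeR adjusted p = 0.275). Cyclin K itself, CCNK circ_0009859, was at 609 ± 168 and 745 ± 551. The Mediator kinases CDK8 (circ_0006580) and CDK19 (circ_0004837) had log2 fold changes of -0.27 (SE 0.22) and 0.29 (SE 0.28). CDKAL1 circ_0010260 had 7, 5, 4, 2 and 2 reads in IMPA1 to IMPA5, none in IMA1 to IMA4 and 2 in IMA5. This gave a level ratio, IMPA over IMA, of 8.31 with a counting interval of 2.02 to 73.3, which again leaves out the spread between libraries. The edgeR adjusted p was 0.162.

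Non-junction reads are the reads that cross the same back-splice sites in linear form, and they follow the host transcript. The table lists them only for libraries in which the circle itself was seen, so a missing value is not 0, and they were tested over the 690 loci with values in all 10 libraries, 34 of which were members. Here 5 members rose in IMA and none fell at an edgeR adjusted p under 0.01, where 21.7% of all loci were called, 11.6% higher and 10.1% lower. The count of 5 of 34 is near that background. A log2 fold change below 0 was found for 12 of 34 members and 49.6% of all loci, and the median was 0.09 for members and 0.00 for all loci. Values below are non-junction reads scaled to the library's total at the 690 loci, in the same manner, with TMM factors.

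CDK8 had the clearest rise. Its normalised non-junction reads were 1216, 1163, 1085, 1157 and 1036 in IMPA1 to IMPA5 and 1544, 1692, 1694, 1607 and 1519 in IMA1 to IMA5, without overlap. The log2 fold change was 0.51 (SE 0.07, edgeR adjusted p = 1.86e-06). KIFAP3, read at circ_0007998, was at 3238, 3265, 3312, 3002 and 3254 in IMPA1 to IMPA5 and 3746, 3826, 3879, 3880 and 3979 in IMA1 to IMA5 (log2 fold change 0.26, adjusted p = 0.000534). The calls of CDK8 and KIFAP3 stood in each of the 18 alternatives tried. CEP85L rose by 0.45 (adjusted p = 0.00454), CDK5RAP2, which recruits gamma-tubulin to the centrosome, by 0.45 (adjusted p = 0.00583) and SMCHD1 by 0.32 on the log2 scale (adjusted p = 0.00925). The call was lost for CEP85L without IMPA2, IMPA4, IMA2 or IMA4 (adjusted p up to 0.0278), for CDK5RAP2 without IMPA1, IMA1, IMA3, IMA4 or IMA5 (up to 0.0233) and for SMCHD1 without any library but IMPA4 or IMA3 (up to 0.0392). At an adjusted p under 0.05, FANCC (0.59), CEP70 circ_0000113 (0.38) and CEP112 circ_0009209 (0.25) were also higher, and CENPJ circ_0006544 (-0.42, adjusted p = 0.0348) and HELLS (-0.35, adjusted p = 0.042) were lower, where 35.7% of all loci passed, 18.4% higher and 17.2% lower. FANCC passed 0.01 without IMPA3 (adjusted p = 0.00644) or IMA3 (0.00306), and CEP70 without IMPA5 (0.00574). The junction reads of these CENPJ and HELLS circles had log2 fold changes of -0.71 and -0.93, which did not pass.

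With libraries that lack a value left out, 58 members could be tested with limma, and 8 rose and none fell at an adjusted p under 0.01, where 19.5% of all loci were called, 9.97% higher and 9.55% lower. At an adjusted p under 0.05, 12 members were higher and 2 lower, beside 33.2% of all loci, 16.9% higher and 16.3% lower. A log2 fold change below 0 was found for 22 of 58 members and 50.2% of all loci. The transport kinesins supplied the added calls. KIF1B, a motor of mitochondria and vesicles, was at 2332, 2539, 2724, 2453 and 2935 in IMPA1 to IMPA5 and at 4118, 4130, 4499 and 4001 in IMA2 to IMA5, with no value in IMA1. It rose by 0.69 on the log2 scale (limma adjusted p = 4.59e-08). KIF5B, the heavy chain of kinesin-1, rose by 0.29 (limma adjusted p = 0.000456) with IMPA2 missing, and KIFAP3 at circ_0007992 rose by 0.24 (limma adjusted p = 0.00457) with IMA1 missing. Of the 11 transport kinesin loci tested 4 rose, and the KIFAP3 loci may count reads of the same transcript. For KIF20B, CENPF and CDKAL1 non-junction reads were listed in 1 IMA library each (584, 1057 and 767) beside IMPA means of 627 to 913, so their linear transcripts could not be tested.

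**Figure D5:**
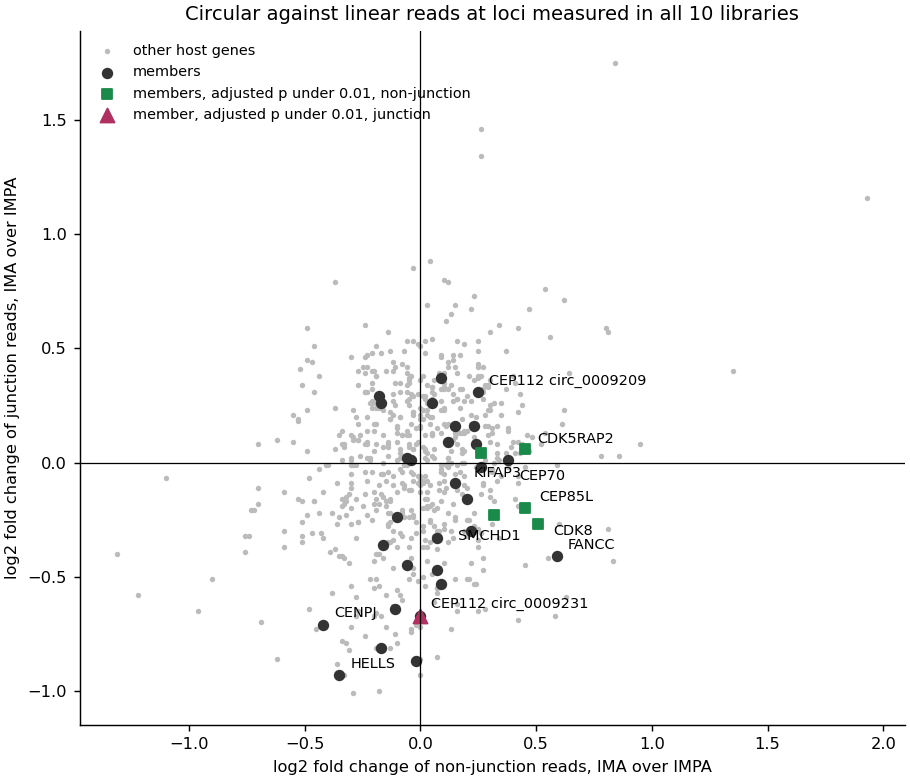
Log2 fold change (IMA over IMPA) of non-junction reads (horizontal) against junction reads (vertical) at the 690 loci with values in all 10 libraries: 34 members (black; green squares, called on non-junction reads; red triangle, circ_0009231, called on junction reads) and the other loci (grey). The called non-junction rises sit right of 0 with junction changes of -0.27 to 0.06, and circ_0009231 sits at 0.00 on the horizontal axis.

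The linear reads at circ_0009231 were level. Scaled as above, they were at 773, 726, 747, 692 and 645 in IMPA1 to IMPA5 and 857, 719, 683, 667 and 657 in IMA1 to IMA5. The log2 fold change was 0.00 (edgeR adjusted p = 0.99). The read counts behind these levels were 162, 133, 155, 140 and 162 in IMPA1 to IMPA5 and 121, 96, 117, 83 and 90 in IMA1 to IMA5. Other parts of CEP112 read higher: its 8 complete loci had non-junction log2 fold changes of 0.00 to 0.26, with a median of 0.21. At an unadjusted p under 0.05 in edgeR, 5 of the 8 were higher and none lower, beside 22.9% of all loci higher. These loci may count reads of the same transcript. Whether junction and non-junction reads of a locus moved by different amounts was tested on the log2 ratio of 2 times the junction reads to the non-junction reads within a library. A ratio exists only where the circle was seen, so libraries with no junction reads drop out, which raises the mean ratio of the stage that has more of them. For circ_0009231, seen in all libraries, this ratio differed by -0.36 (limma unadjusted p = 0.21), with an SE of 0.28 from limma's spread shared over all circRNAs, beside a median of 0.37 over all circRNAs. Its circular share was 42.1%, 38.7%, 48.2%, 40.2% and 45.3% in IMPA1 to IMPA5 and 33.1%, 38.5%, 35.4%, 37.6% and 39.2% in IMA1 to IMA5. The means were 42.9% ± 3.84 and 36.8% ± 2.47 (SD), and IMA5 alone lay inside the IMPA range. None of the 61 members tested by limma passed an adjusted p under 0.01 or 0.05. Of all 1259 circRNAs tested by limma, 0.635% passed 0.01 and 1.99% passed 0.05, all of them higher. None of 34 members passed 0.01 in edgeR's interaction of read kind and stage, for which no share over all loci was counted. At an unadjusted p under 0.05 by limma, 2 members were lower (VRK1 circ_0009848 and FANCC), beside 1.35% of all circRNAs. Higher were 4 (CDK19, SMC5, DIAPH3 circ_0006779 and KIFAP3 circ_0007984), beside 21.7% of all circRNAs. The interaction test gave 5 of 34 members at that level. Again no share over all loci was counted, so the 5 cannot be read as a result about the members. DIAPH3 circ_0006779 lacked IMA2 and KIFAP3 circ_0007984 lacked IMA2 and IMA4, and SMC5 lacked IMPA2 and IMPA3. At the 690 loci with all values, 2 members were lower and 1 higher at that level by limma, beside 14 lower and 166 higher of all 690. Of the 34 members with complete values none had groups that did not overlap in circular share, beside 5.22% of such loci higher and 0.145% lower. A ratio difference below 0 was found for 26 of 61 members and 24% of all circRNAs. The median ratio difference was 0.08 for members and 0.37 for all circRNAs, and both rest on values that need junction reads. Counts of 0 differed between the stages to another degree in the members than over the table, as given above. At loci with all values the medians were -0.03 over 34 members and 0.34 over all 690, a set that is itself chosen by detection.

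The circular share counts each junction read as 2 and divides by that number plus the non-junction reads. It spanned 0.379% to 58.9% among the members. At complete loci the median member share was 16.8% ± 1.99 in IMPA and 16.0% ± 1.62 in IMA, while the median over all loci was 10.4% ± 0.606 and 12.3% ± 0.401 (SD over 5 libraries each). CEP128 (58.9%), CENPJ circ_0006544 (53.9%), CDK13 (50.5%), CEP70 circ_0000113 (49.2%) and CCNK (41.2%) had the highest shares over all libraries. For CDK13 the share lay between 39.3% and 54.9% in the IMPA libraries and between 42.5% and 55.5% in the IMA libraries. At the other end, KIF5B (0.379%), KIF1B (1.24%) and KIFAP3 at circ_0007984 (1.29%) had the lowest shares. Within KIFAP3, circ_0007990 had a share of 14.1% and the 4 other circles 1.29% to 3.86%.

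The form of the circles was compared by medians. The median genomic span was 6181 nt for members and 8092 nt for the others, the median spliced length 332 and 319 nt, and the median number of listed exons 3 and 2. Spans ran from 276 nt (NEK11 circ_0000201) to 60642 nt (CEP112 circ_0009195). The median circular share of 11.7% compared with 8.60% in the other circRNAs. No test was made of these.

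Cell cycle genes outside the name rule were looked up as well. From a list of 145 further genes, 20 hosted 29 circRNAs, among them RB1, CDC6, MYBL1, ATAD2, ATRX, PCM1 and NUF2. None passed the junction test at an adjusted p under 0.01 or 0.05, which 0.927% and 1.39% of all circRNAs passed. At an unadjusted p under 0.05 by edgeR, 4 were lower and 1 higher, beside 8.35% of all circRNAs lower and 4.79% higher. Of the 29, 21 had a log2 fold change below 0, beside 55.1% of all circRNAs tested. The median was -0.25, beside -0.06 for all circRNAs tested. CDC6, which loads the replicative helicase, had 9, 12, 12, 10 and 14 junction reads in IMPA1 to IMPA5 and 3, 6, 4, 6 and 3 in IMA1 to IMA5, with a log2 fold change of -0.86 (edgeR adjusted p = 0.169) and a non-junction fold change of -0.62 (adjusted p = 0.016). In non-junction reads 2 of 15 loci rose, both of MYBL1, and none fell at an adjusted p under 0.01, beside 11.6% of all loci higher and 10.1% lower. With missing libraries left out 26 could be tested, and LMNB1 at circ_0004024, a nuclear lamina gene, fell by 0.49 on the log2 scale (limma adjusted p = 0.000123), beside the MYBL1 rises. Over all loci of that fit 9.97% were higher and 9.55% lower at an adjusted p under 0.01.

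All 67 members had predicted miRNA partners in the deposited list of names, which gives no site, score or measurement. The list holds 674 pairs for them, with 272 of its 435 miRNAs. circ_0009231 was paired with chi-miR-103-3p, chi-miR-107-3p, chi-miR-192-5p, chi-miR-215-5p, chi-miR-28-5p and chi-miR-708-5p. The most frequent partner was chi-miR-130a-5p, listed for 10 members or 14.9%, against 7.54% of all circRNAs with partners. Next came chi-miR-145-5p with 9 members, or 13.4% against 9.82%. The related chi-miR-15a-5p, chi-miR-15b-5p, chi-miR-16a-5p, chi-miR-16b-5p, chi-miR-195-5p and chi-miR-424-5p had 8 each, or 11.9% against 7.46% to 8%. CircRNAs of 1 gene can share exons and so predicted partners, and these shares were not tested.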

How the data were processed

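CircRNA libraries of 5 IMPA and 5 IMA samples were analysed. Per the labels and the study's methods, RNA was depleted of ribosomal RNA and sequenced on an Illumina HiSeq, and circRNAs called by both find_circ and CIRI2 were kept. The authors deposited junction read counts, non-junction read counts and TPM values, which are the junction counts scaled to the library total (CPM) with no length term. Aligner version and genome build were not given in the sources used here. Groups came from the labels. The members and gene lists were chosen with earlier results of these data known. A circRNA listed in repeated rows was counted once, and 10 further sample names in the tables were not used.

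For junction counts the test was that of edgeR 4.0.16, run under R 4.3.3 (TMM, quasi-likelihood, prior count 2, circRNAs seen in 5 libraries or more), with Benjamini-Hochberg adjustment over all circRNAs and a threshold of 0.01. Non-junction counts are listed only where junction reads exist, so in place of the planned count filter edgeR was fitted to the 690 complete loci, and limma 3.58.1 with missing libraries left out was added after seeing the data. The ratio log2((2J + 1)/(NJ + 1)), with J the junction and NJ the non-junction reads, was tested with limma. DESeq2 1.42.0 was an alternative. Scripts were tested on simulated data. Members named are those past an adjusted p of 0.05 in any fit, those of smallest p, most reads or extreme circular share, and those of genes with at least 3 circRNAs; further members are named as examples of their role, chosen after their values were seen. Library totals of 9622 to 15553 junction reads limit the precision. Same-numbered libraries did not deviate together (r from -0.0524 to 0.0686), and no pairing was assumed.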

Additional observations from a re-analysis of the deposited data

Results flagged for a closer look

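In 7 of 72 groups of 5 libraries 1 library stood far from the others, where the rule used is set to mark about 1 in 20 groups by chance. CDKAL1 accounts for 2 of the 7, and where 4 libraries are at 0 any read in the other one is marked. KIF20B circ_0011092 and CDKAL1 circ_0010260 were each at 192 normalised TPM in IMA5 and at 0 in the other IMA libraries, and the summed level of the group that holds CDKAL1 alone was therefore 192 in IMA5. DIAPH3 circ_0006782 was at 320 normalised TPM in IMA3 and at 0 in the other IMA libraries. The CENPF circle, the only one of the kinetochore group, was at 400 normalised TPM in IMA3 and at 0 elsewhere in IMA. The normalised non-junction reads at KIFAP3 circ_0007998 were 3002 in IMPA4 and 3238 to 3312 in the other IMPA libraries. The circular share of SMC5 circ_0004407 was 6.69% in IMA4 and 2.26% to 3.25% in the other IMA libraries.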

How the results depend on the processing

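The count of 1 member called on junction reads was 0 with DESeq2 size factors, without TMM, with uniquely mapped reads as library sizes, with the DESeq2 Wald test (unadjusted p under 0.05 for 14, 12, 11 and 13 members) and with the replicate number as a block (11 members), and ranged from 0 to 1 when single libraries were left out. The median junction log2 fold change of -0.28 was -0.09 with uniquely mapped reads as library sizes and -0.12 over the 18 members with a mean count of at least 10, and ranged from -0.36 to -0.24 without single libraries. The 5 members called on non-junction reads became 10 at an adjusted p under 0.05, 2 without TMM, 2 with uniquely mapped reads, 3 with the DESeq2 Wald test and 8 with missing libraries left out, and ranged from 2 to 6 without single libraries. The median of 0.09 over the 34 members tested ranged from 0.07 to 0.17 without single libraries, the latter without IMPA5, and was 0.03 without TMM and 0.04 with uniquely mapped reads. The difference in the members' share of junction reads ranged from -0.852 to -0.671 percentage points without single libraries. No member was called on the ratio in any alternative. With the replicate block the non-junction count was 5 and the ratio count 0. The 6 member calls were lost in 38 of 108 comparisons: 13 of 18 for circ_0009231, 11 for SMCHD1, 8 for CDK5RAP2, 6 for CEP85L and 0 for CDK8 and KIFAP3. Members not called gained a call in 3, and no direction reversed. The cause of these changes was not tested. The planned fit of non-junction reads without a filter was not run, since missing values are not 0. Most member counts were under 10 reads, which limits what could be called.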
